A study of Bos taurus with 60 samples.

Results

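The miR-29 family was described in the liver of beef steers through its members bta-miR-29a, bta-miR-29b and bta-miR-29c (29a, 29b and 29c below), which are 3 of the 1030 known bovine mature miRNAs in the count tables. They were taken by name, and the read counts of a member that can arise from several precursors were averaged. Small RNA was sequenced from 60 steers, with 20 each of Angus, Charolais and the crossbred Kinsella Composite (KC) and 1 library per steer. Within each breed, the labels place 6 steers in a low-RFI and 6 in a high-RFI group and give no RFI group for the other 8. Residual feed intake (RFI) is the difference between the feed an animal eats and the feed expected for its size and growth, so low-RFI steers are the feed-efficient ones. Every steer was castrated, was kept on the same ranch and received the same barley-based finishing diet. By the study's methods, the age at slaughter differed between breeds, so that breed and age cannot be told apart. All sequenced steers, also those without an RFI group, had been taken from the high and low ends of RFI in their breed. The RFI groups were extreme steers among these that also looked alike in an overview of miRNA expression, which makes the groups a selected set. The labels hold 23 sire codes, 1 of which begins with NA and may stand for an unknown sire, and several steers share a sire.

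MicroRNAs guide the silencing complex to messenger RNAs that pair with their seed, the bases near the 5′ end. The miR-29 family is known for repressing collagens and other genes of the extracellular matrix, and in mammalian liver its loss from stellate cells accompanies fibrosis, from which the name antifibrotic family comes. No measure of fibrosis was analysed here. The mature sequences below, as the study's supplement lists them from miRBase, are shown because the members differ by so few bases that both their seeds and the assignment of reads turn on single positions. Bases 2 to 8, the seed, are in capitals.
bta-miR-29a: cUAGCACCaucugaaaucgguua
bta-miR-29b: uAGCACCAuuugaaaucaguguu
bta-miR-29c: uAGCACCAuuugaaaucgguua
bta-miR-29d-3p: uAGCACCAuuugaaaucgauua
As listed, 29b, 29c and 29d-3p had the same seed, AGCACCA, and no other of the 588 mature sequences did. The sequence of 29a is listed with 1 more base at its 5′ end, and the 5′ ends of its reads were not examined. Its bases 2 to 8 were therefore UAGCACC, a seed found in no other listed miRNA, and the letters AGCACCA stood at its bases 3 to 9. These 4 sequences were the only ones of the 588 that held AGCACCA anywhere.

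The members were nearly identical beyond the seed. Aligned at the shared letters, 29a and 29c matched at 20 of 21 bases, and the single difference was U10C, with positions counted from 1 at the 5′ end of 29c and the base of 29c given before that of 29a. The other member, 29b, differed from 29c at 3 of 21 bases (G18A, U21G and A22U on the same count) and carried 1 extra base at its 3′ end. The further miRNA 29d-3p differed from 29c at a single base, which is A19G when counted on 29d-3p with its own base given before that of 29c. Reads that carry a sequencing error or a trimmed end can fit more than 1 of these sequences, so the counts of 29a, 29c and 29d-3p are uncertain to the extent that reads were shared. How far they were shared was not tested.

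In the RefSeq annotation of assembly ARS-UCD2.0, the precursor genes lie in neighbouring pairs. MIR29A and MIR29B-1 are adjacent, MIR29B-2 and MIR29C are adjacent between CD34 and CD46, and MIR29E is next to MIR29D. Mature 29b is therefore the member that 2 loci encode. Its counts on precursors 29b-1 and 29b-2 were equal in 17 steers and never differed by more than 6 counts, at most 12.2% of the smaller value. The precursor 29b-2 had more counts in 40 steers and 29b-1 in 3. The tables thus held almost the same reads under both precursors and did not separate the 2 loci.

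The totals after averaging ran from 1930859 to 6759381 counts per steer, and KC libraries were the deepest with a median of 5547018, against 4405876 in Charolais and 3720336 in Angus. At these depths 3 counts, taken as the floor, were worth between 0.444 and 1.55 CPM, the unit of read counts scaled to the library total. Levels are given in CPM after TMM normalisation, which scales libraries by the bulk of their miRNAs. The scaling factors lay between 0.671 and 1.17. The liver marker miR-122 was at 5069 to 17700 CPM in every library, and the muscle marker miR-206 was at no more than 0.322 CPM. Other muscle markers reached higher levels, with miR-133a at 17.75 to 55.22 CPM, miR-1 at up to 10.44 CPM and miR-499 at up to 2.59 CPM. The floor covers counting error only, since the libraries were amplified by PCR, while the 95% intervals of fold changes come from fits across steers and hold the spread between steers as well.

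The member 29a made up nearly all of the family. Over the 60 steers its level was 796 ± 85.2 CPM (SD), from 596 to 996 CPM with a median of 791 CPM, which rested on 1393 to 6143 counts. The level of 29c was 52.3 ± 7.21 CPM, from 35.1 to 72.5 CPM with a median of 52.0 CPM. That of 29b was 23.2 ± 4.20 CPM, from 15.8 to 33.5 CPM with a median of 22.5 CPM and as few as 38.5 averaged counts. In all 60 steers the order was the same, with 29a above 29c and 29c above 29b. The place of 29b depended on the averaging: with counts summed over its 2 precursors it was at 40.7 CPM, and 29c then lay above 29b in 42 steers, level with it in 1 and below it in 17, while 29a stayed the highest in all 60. The 3 mature forms are 22 or 23 bases long, so these levels were compared between molecules of nearly the same length. By mean level 29a ranked 48 or 49 among the known miRNAs, depending on the breed, 29c ranked between 126 and 130, and 29b between 170 and 173. Together the 3 members took 0.0878% ± 0.0130 of all counts.

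The other miRNAs of the miR-29 name were much scarcer. The level of 29d-3p, which shares the seed of 29b and 29c, was 5.70 ± 1.87 CPM and stayed below that of 29b in all 60 steers. By name the opposite arm of that hairpin, 29d-5p was at 3.97 ± 1.15 CPM. These 2 miRNAs lay closest to each other, with 29d-3p higher in 50 steers, equal in 1 and lower in 9. For KC, 29d-5p was also listed on precursor 29c, with equal counts on both precursors in 20 of 20 steers. In KC the counts thus did not tell which of these hairpins its reads came from. The last of the family by name, 29e, had a single count in 8 steers and 0 in 52, all at or below the floor.

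**Figure D1:**
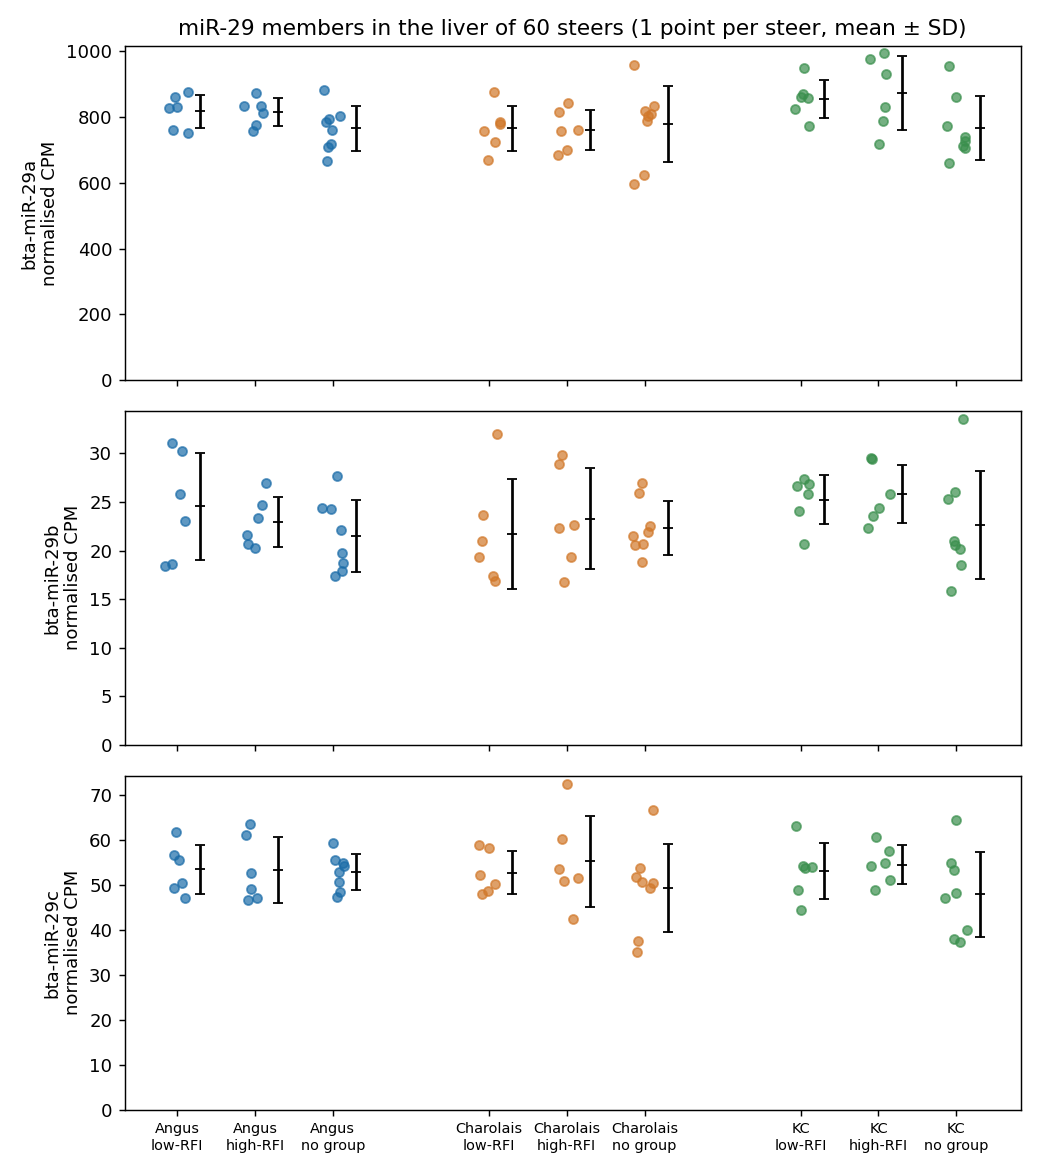
Normalised CPM (vertical axes from 0) of 29a, 29b and 29c in each of 60 steers, by breed and RFI group, with 1 point per steer and the mean ± SD beside each group. The groups overlap in every panel, with 29a between 596 and 996 CPM, 29b between 15.8 and 33.5 CPM and 29c between 35.1 and 72.5 CPM.

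The level of 29a was steady from steer to steer. Within breeds its coefficient of variation was 10.4%, against 14.01% for 29c and 18.1% for 29b. Counting error alone would give 1.77% for 29a, 6.89% for 29c and 10.5% for 29b, so a larger part of the spread of 29b is counting error. On the log2 scale the within-breed SD of 29a was 0.152, at place 24 from the lowest of 443 miRNAs tested between breeds. Set beside the 50 miRNAs closest to it in level, 12 varied less than 29a, 12 less than 29b and 6 less than 29c. The median SD of those neighbours was 0.197 around 29a, 0.351 around 29b and 0.307 around 29c. The 36 steers with an RFI group were tighter than the 24 without one for 29a, with coefficients of variation within groups of 8.40% and 12.4%, and for 29c, with 12.3% and 16.7%. For 29b these were 18.4% and 18.7%. Since the steers with an RFI group were chosen partly for similar miRNA expression, these spreads are a description.

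The first comparison asked whether the levels differed between the 3 breeds. For 29a, the 20 Angus steers ran from 665 to 882 CPM with a median of 800, the Charolais steers from 596 to 957 CPM with a median of 782, and the KC steers from 661 to 996 CPM with a median of 827. The breeds overlapped widely, although 5 of 20 KC steers lay above the highest Angus steer. For 29b, Angus ran from 17.3 to 31.1 CPM (median 22.6), Charolais from 16.8 to 32.0 CPM (median 21.7) and KC from 15.8 to 33.5 CPM (median 24.9), and 14 of 20 KC steers exceeded the Charolais median. For 29c, Angus ran from 46.7 to 63.6 CPM (median 52.8), Charolais from 35.1 to 72.5 CPM (median 51.2) and KC from 37.3 to 64.5 CPM (median 53.7). The Angus range of 29c lay wholly inside that of Charolais.

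In edgeR's quasi-likelihood F test of breed, 16.7% of the 443 miRNAs tested passed an adjusted p of 0.05, and 0 of the 3 members did. The adjusted p was 0.303 for 29a, 0.534 for 29b and 0.862 for 29c, and none was under 0.05 before adjustment. The likelihood-ratio test, DESeq2 and limma-voom also called 0 of 3. Between Charolais and Angus, where 1.35% of miRNAs were called, the log2 fold change was -0.049 ± 0.050 (SE) for 29a, -0.031 ± 0.084 for 29b and -0.028 ± 0.067 for 29c, and 0 members were called. Between KC and Angus, with 10.8% called, it was 0.053 ± 0.050, 0.086 ± 0.083 and -0.049 ± 0.067, and again 0 members were called. Between KC and Charolais, with 16.3% called, 0 members were called and 1, 29a, had an unadjusted p under 0.05. Its level was 7.30% higher in KC than in Charolais (log2 fold change 0.10 ± 0.050, 95% interval 0.0014 to 0.20, adjusted p = 0.174 by edgeR). With 1 steer left out in turn it ran from 0.049, without the third low-RFI Charolais steer, to 0.11. The unadjusted p stayed under 0.05 in 12 of the 60 fits. Each of these fits was filtered and normalised anew. Leaving out an Angus steer, which is outside this contrast, could also move the value. It was 0.060 without the fourth low-RFI Angus steer, and why was not tested.

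The intervals bound what breed differences could have been missed. For 29a the 95% intervals of the 3 contrasts reached from -9.82% to 15.03%. For 29c they reached from -11.9% to 8.15% and for 29b, with the fewest counts, from -12.8% to 21.6%. A 1.5-fold difference between breeds lay outside every one of these 9 intervals.

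The comparison of RFI groups asked whether the family differs between feed-efficient and inefficient steers. In Angus, 29a ran from 750 to 875 CPM in low-RFI steers (median 828) and from 758 to 874 CPM in high-RFI steers (median 822). In Charolais it ran from 669 to 876 CPM (median 769) and from 686 to 841 CPM (median 758). In KC it ran from 772 to 949 CPM (median 860) and from 719 to 996 CPM (median 880). The low-RFI and high-RFI ranges overlapped in each breed. In Angus and Charolais the low-RFI range enclosed the high-RFI range, and in KC the high-RFI range enclosed the low-RFI range.

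The scarcer members spread more within a group. For 29b, low-RFI and high-RFI Angus steers ran from 18.4 to 31.1 CPM (median 24.4) and from 20.3 to 26.9 CPM (median 22.5). The same groups ran from 16.8 to 32.0 CPM (median 20.1) and from 16.8 to 29.9 CPM (median 22.4) in Charolais, and from 20.6 to 27.3 CPM (median 26.2) and from 22.3 to 29.5 CPM (median 25.1) in KC. No breed separated its RFI groups by 29b. For 29c, the low-RFI and high-RFI medians were 53.0 and 50.9 CPM in Angus, 51.3 and 52.6 CPM in Charolais, and 54.0 and 54.5 CPM in KC, and the groups overlapped in all 3 breeds. The highest 29c of any steer, 72.5 CPM, was in a high-RFI Charolais steer.

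The tests found no RFI difference for any member. By the study's rule, an unadjusted p under 0.05 with a fold change above 1.5, edgeR called 0 of the 3 members in each breed, where the share of all miRNAs called was 2.41% for Angus, 1.88% for Charolais and 1.82% for KC. In Angus the log2 fold change of low against high RFI was 0.037 ± 0.069 (SE) for 29a, 0.15 ± 0.15 for 29b and 0.033 ± 0.12 for 29c. In Charolais it was 0.023 ± 0.10, -0.088 ± 0.19 and -0.055 ± 0.14, and in KC it was 0.0018 ± 0.090, -0.0028 ± 0.12 and -0.0031 ± 0.10. All 9 values were smaller than their standard errors, and the smallest unadjusted p was 0.358, for 29b in Angus. Exact two-sided permutation tests over all relabelings of the 12 steers gave p between 0.587 and 0.95, with an adjusted p of 0.95 for each of the 9 tests. Within a breed, 4 of 6 low-RFI Angus and Charolais steers exceeded the high-RFI median of 29a, while 1 of 6 did in KC.

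Taken over the 36 steers with breed in the model, the differences were close to 0. The level of 29a differed by -0.546% between low and high RFI, with a 95% interval from -6.38% to 5.65%. For 29b the difference was -0.766% (-12.1% to 12.04%) and for 29c it was -2.61% (-11.0% to 6.57%). When steers were compared within sires, 29b was at a log2 difference of -0.20 (95% interval -0.59 to 0.18), also uncalled. The adjusted p of edgeR was 0.978 for each member, and 0% of the 426 miRNAs were called, with 13 at an unadjusted p under 0.05, none a member. DESeq2 and the likelihood-ratio test called 0 as well. The test of whether the RFI difference itself varied between breeds gave an adjusted p of 0.994 for each member and called 0% of miRNAs, with 16 at an unadjusted p under 0.05, none a member. In that test DESeq2 and the likelihood-ratio test each called 1 miRNA, no member. Within single breeds the intervals were wide for 29b, from -29.1% to 24.9% in Charolais and from -11.7% to 38.4% in Angus, so smaller changes of that member were not detectable with 6 steers a group. With sire as a block, where 1 sire in Charolais and 1 in KC had steers in both groups, 29b was at a log2 fold change of -0.48 (-1.33 to 0.38) in Charolais and -0.32 (-0.92 to 0.28) in KC, neither called.

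**Figure D2:**
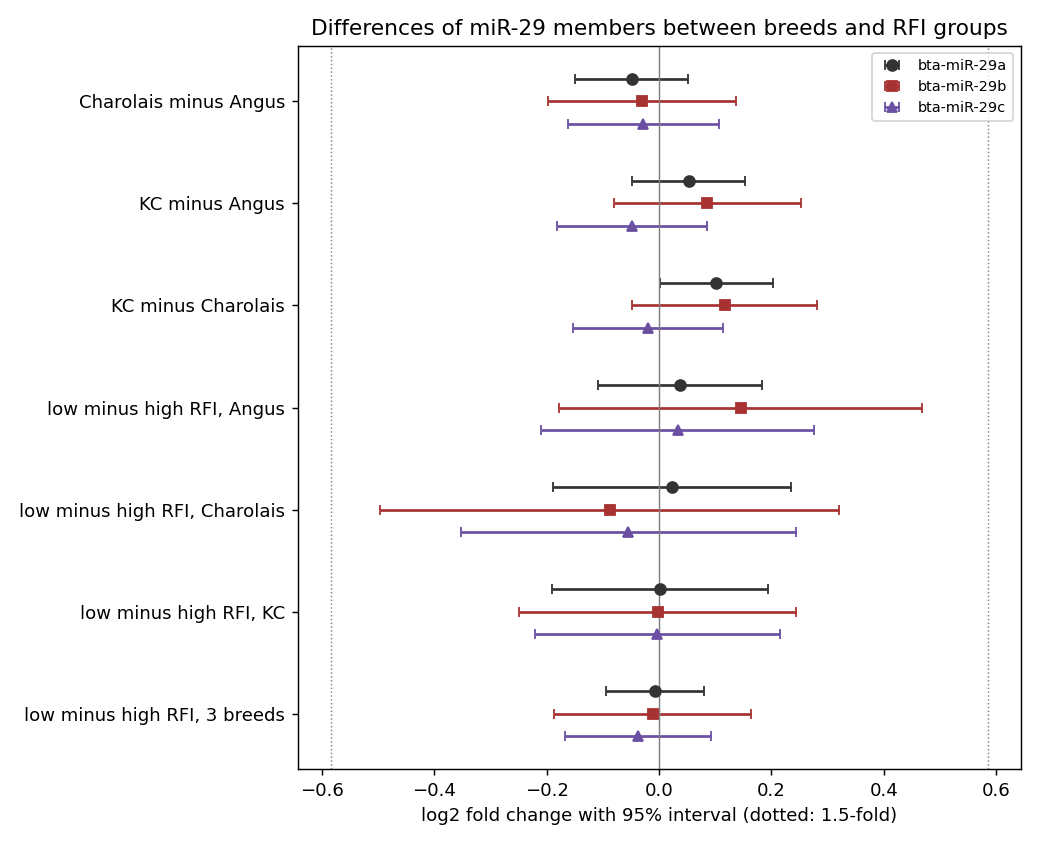
Log2 fold changes of 29a, 29b and 29c (horizontal axis) with 95% intervals for 3 breed contrasts and 4 contrasts of low against high RFI, with dotted lines at a 1.5-fold change. Every interval lies inside the dotted lines, and only that of 29a between KC and Charolais, from 0.0014 to 0.20, leaves out 0.

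A ratio of members within a library does not depend on its depth. Of the summed counts of the 3 members, 29a took 91.3% ± 0.841 (SD, n = 60), 29c took 6.02% ± 0.776 and 29b took 2.67% ± 0.483. The share of 29a stayed between 89.1% and 93.0% in every steer. Per count of 29c there were 15.1 ± 1.67 counts of 29a in Angus, 14.9 ± 1.74 in Charolais and 16.3 ± 2.32 in KC, with 20 steers each and lowest and highest values of 11.2 and 17.7, 11.3 and 17.8, and 11.4 and 19.4. The breeds overlapped over most of this range. Per count of 29b there were 35.6 ± 4.85, 35.4 ± 7.32 and 34.7 ± 6.19 counts of 29a in Angus, Charolais and KC.

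No ratio differed between groups beyond its spread. In the 18 ratio tests, 9 between breeds and 9 between RFI groups, 0 had a p under 0.05 in the permutation test before or after adjustment. The smallest p was 0.0683 (adjusted p = 0.678, permutation test), for more 29a per 29c in KC than in Charolais, a log2 difference of 0.12 ± 0.062 (SE). KC against Angus gave 0.10 ± 0.062 for the same ratio (permutation p = 0.10). For 29c per 29b, KC was lower than Angus by a log2 difference of -0.15 ± 0.093 (permutation p = 0.113). Between low-RFI and high-RFI steers the 9 log2 differences ran from -0.068 to 0.12, with exact permutation p of at least 0.545.

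**Figure D3:**
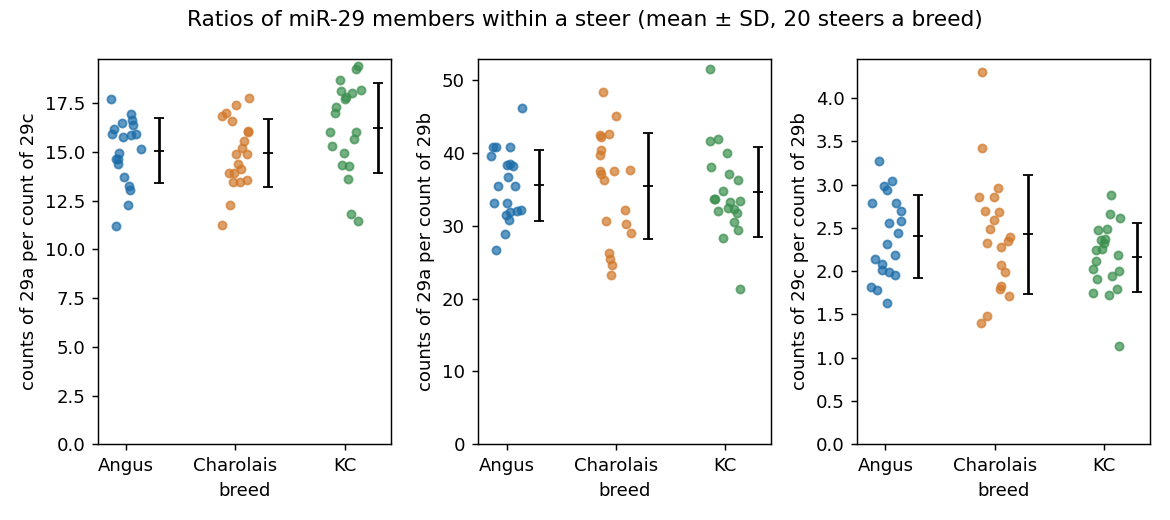
Counts of 29a per count of 29c, of 29a per 29b and of 29c per 29b (vertical axes from 0) in each steer by breed, with the mean ± SD of 20 steers beside the points. The breeds overlap in each panel, and the mean of 29a per 29c is 15.1 in Angus, 14.9 in Charolais and 16.3 in KC.

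Whether the members rise and fall together across steers was examined within each breed. Among 20 Angus steers, log2 CPM of 29a and 29b were related, with Pearson r = 0.66 (permutation p = 0.00145, adjusted p = 0.00652) and Spearman rho = 0.68 (permutation p = 0.0016, adjusted p = 0.0144). Without the 2 steers farthest from the median of 29a, r was 0.54. In Charolais the same pair gave r = 0.0025 (permutation p = 0.992) and rho = -0.026, and in KC r = 0.33 (permutation p = 0.161) and rho = 0.34. For 29a and 29c, Charolais gave r = 0.71 (permutation p = 0.00051, adjusted p = 0.00459) but rho = 0.51 (permutation p = 0.0254, adjusted p = 0.114), and r fell to 0.43 without the 2 farthest steers. That relation therefore rested in part on the steers with the lowest 29a. Angus gave r = 0.12 and rho = 0.26 for 29a and 29c, and KC gave r = 0.41 (permutation p = 0.0698) and rho = 0.39. The 2 members that share a seed, 29b and 29c, had r = -0.0097 in Angus, while Charolais had r = -0.22 and KC r = 0.23, with permutation p of at least 0.335. The adjusted values were taken over the 9 relations, and whether a relation differed between breeds was not tested. These relations depended on the normalisation: scaled by library totals alone, r of 29a and 29c was 0.74 in Angus and 0.62 in KC. On that scale r of 29b and 29c in Angus was 0.57, with rho = 0.28.

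**Figure D4:**
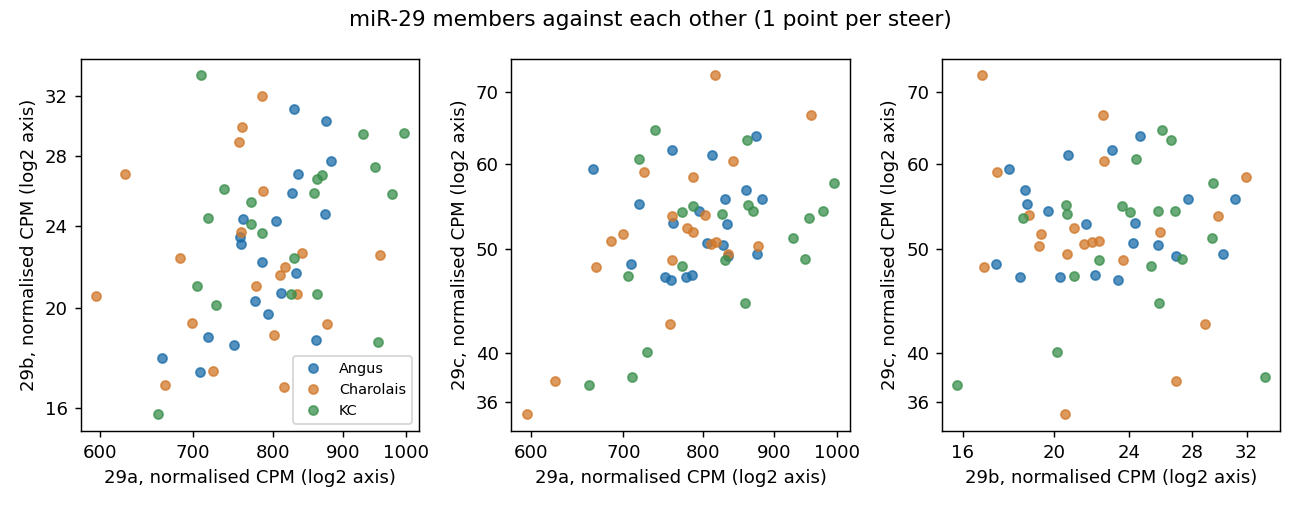
Normalised CPM of the members against each other on log2 axes, with 1 point per steer coloured by breed, for 29a and 29b (left), 29a and 29c (middle) and 29b and 29c (right). Within Angus 29a and 29b have r = 0.66. Within Charolais 29a and 29c have r = 0.71 but rho = 0.51 (adjusted permutation p = 0.114), and r = 0.43 without the 2 farthest steers. For 29b and 29c, r on these normalised values is -0.0097 in Angus, -0.22 in Charolais and 0.23 in KC.

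The members were not each other's nearest matches. Ranked by Spearman's rho of log2 CPM over the 60 steers after breed means were subtracted, among 442 other miRNAs, 29a was most like miR-339a (rho = 0.51), miR-139 (0.51) and the endothelial miR-126-3p (0.48). For 29a, 29c took place 14 (rho = 0.39) and 29b place 32 (0.27). Most like 29b were miR-20a (0.58), a member of the miR-17 to 92 cluster, miR-342 (0.54) and miR-145 (0.51), which is abundant in smooth muscle and other mesenchymal cells. The highest for 29c were miR-27a-3p (0.50), miR-490 (0.47) and miR-126-3p (0.43), with 29a at place 5. Between 29b and 29c rho was 0.0067. All these values share the libraries and the normalisation and are a description.

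Levels of miRNAs with known roles in liver fibrosis were set beside the family, on a list of 18 that all passed the filter on low counts. It holds miR-21, miR-199a, miR-199b, miR-214, miR-221 and miR-222, which are raised in fibrotic liver, and miR-122, miR-19 and miR-133a, which are lowered. Between KC and Angus 1 of 18 was higher and 1 lower at an adjusted p of 0.05, against 10.8% of all miRNAs. The list's median log2 fold change was 0.081, beside 0.0068 over all miRNAs tested. Since the list mixes miRNAs raised and lowered in fibrotic liver, its medians here and below point neither towards nor away from fibrosis. The higher miRNA in KC was miR-155, an activator of inflammatory cells, at 0.49 ± 0.14 (SE, adjusted p = 0.0173 by edgeR). Its KC steers ran from 59.1 to 369 CPM with a median of 73.4, and its Angus steers from 47.3 to 107 CPM with a median of 63.3. Without the fifth low-RFI KC steer the log2 fold change of miR-155 was 0.23 and the call was lost (adjusted p = 0.0691). The lower one was miR-130a, at -0.23 ± 0.068 (adjusted p = 0.0191 by edgeR), with Angus at 201 to 346 CPM and KC at 168 to 271 CPM. Between KC and Charolais, where 16.3% of all miRNAs were called, miR-199a-5p was higher at 0.20 ± 0.065 (adjusted p = 0.0281 by edgeR). That call was lost with any of 33 of the 60 steers left out, and the log2 fold change was 0.13 at the lowest. Some of these steers were Angus, which is outside this contrast. Without the fourth low-RFI Angus steer it was 0.15 (adjusted p = 0.110 by edgeR), and why was not tested. Between Charolais and Angus 0 of 18 were called, against 1.35% of all miRNAs, with a median log2 fold change of 0.083 beside -0.018 over all miRNAs.

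Within breeds, 0 of the 18 were called between RFI groups in Angus and in KC, and 1 in Charolais, beside 2.41%, 1.82% and 1.88% of all miRNAs tested. That was miR-133a, the muscle miRNA, at 0.62 ± 0.23 in low against high RFI (adjusted p = 0.752 by edgeR), with low-RFI steers at 25.8 to 55.2 CPM and high-RFI steers at 19.1 to 34.2 CPM. The groups of miR-133a overlapped, and the call was lost with any of 5 of the 12 steers left out, at 0.52 at the lowest. The median log2 fold changes of the list were 0.029 in Angus, 0.020 in Charolais and 0.045 in KC, beside 0.0092, 0.0027 and 0.027 over all miRNAs tested. Over the 3 breeds 0 of 18 were called.

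Marker miRNAs of liver cell types are given for the same comparisons. Of the hepatocyte markers 1 of 4 was called, miR-885, at 0.57 ± 0.12 in KC against Angus (adjusted p = 0.000201 by edgeR), where 10.8% of all miRNAs were called. The stellate or mesenchymal list had 1 call of 5, the miR-199a-5p given above for KC against Charolais (16.3% called), and the leukocyte list had miR-155 as its 1 call of 5 between breeds, in KC against Angus (10.8% called). Another leukocyte marker, the neutrophil miRNA miR-223, was called in KC at 0.69 ± 0.21 in low against high RFI (adjusted p = 0.646 by edgeR), where 1.82% of all miRNAs were called. Its low-RFI KC steers ran from 33.3 to 58.9 CPM and its high-RFI KC steers from 13.2 to 35.3 CPM, and the call was lost without either of 2 steers, at 0.53 at the lowest. None of the 3 erythroid or 2 endothelial markers was called in any comparison, and of 3 muscle markers tested miR-133a alone was. The median log2 fold change of KC against Angus was 0.14 over the hepatocyte list, 0.12 over the stellate or mesenchymal and 0.15 over the leukocyte list. It was -0.10 over the erythroid, 0.029 over the endothelial and 0.26 over the muscle list, beside 0.0068 over all miRNAs tested. Of the muscle markers tested, miR-1 and miR-499 had medians of 1.95 and 1.21 CPM, near the floor. Larger medians occurred elsewhere, such as -0.30 over the erythroid list in Charolais against Angus. For low against high RFI the leukocyte list was at 0.26 in KC, and the muscle list at -0.41 in Angus and 0.62 in Charolais. The summed stellate or mesenchymal markers lay between 116100 and 377000 CPM and the summed hepatocyte markers between 174700 and 357200 CPM. Each sum was mostly 1 miRNA, with miR-143 alone between 114200 and 374900 CPM and miR-192 alone between 168000 and 349400 CPM. Every other stellate or mesenchymal marker was at no more than 1992 CPM, and every other hepatocyte marker at no more than 17700 CPM. In bulk liver, fewer cells of a type and less of a miRNA per cell cannot be told apart.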

How the data were processed

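Liver small RNA from 60 steers was sequenced as 1 library each. The deposited tables hold raw read counts per pair of mature miRNA and precursor. Of these pairs, 52 were listed only for KC, so the listing and the breed cannot be told apart there. How far this changed the shares of miRNAs called between KC and the other breeds was not tested. The precursors of 29a, 29b and 29c were listed in all 60 steers. The authors trimmed reads with cutadapt 1.16, removed reads by length and those of other small RNAs, and counted with miRDeep2 and Bowtie 1.1.1 at default settings against genome UMD3.1 and miRBase, with adapters ligated by the TruSeq kit. Ligation is known to favour some sequences, so counts rank members only roughly.

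Counts were averaged over precursors, rounded and tested with edgeR 4.0.16 (R 4.3.3, limma 3.58.1) by the quasi-likelihood test with TMM, on miRNAs that reached 1 CPM in 6 or more libraries. That left 443 miRNAs between breeds, 373, 373 and 385 between RFI groups in Angus, Charolais and KC, and 426 over the 36 steers. Breed contrasts were called at an adjusted p (Benjamini-Hochberg) under 0.05. Log2 CPM used a prior count of 0.5. Permutation tests used every relabeling of 12 steers, the smallest possible p being 0.00216, or 100000 resamples, and were two-sided. DESeq2 1.42.0 and limma-voom served as alternatives. Sequences came from a supplement of the study, and no genome of UMD3.1 was used, so no coordinates are given.

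The members, the lists (the other miR-29 names, liver fibrosis, hepatocyte, stellate or mesenchymal, leukocyte, erythroid, endothelial and muscle) and the tests were chosen with earlier results of these data known. Named are the members, other miR-29 names, the 3 miRNAs most like each member and list miRNAs that were called. Of the 6 miRNAs listed under the miR-29 name 5 were tested. No libraries were identical. The p-values measure the spread between steers, of which some share a sire.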

Additional observations from a re-analysis of the deposited data

How the results depend on the processing

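Under the 11 alternative settings, and with each of 60 steers left out in turn, 0 of the 3 members was called in any comparison of breeds or RFI groups, and the lowest adjusted p was 0.0974 (29a between KC and Charolais in the 36 steers with an RFI group). Of 186 log2 fold changes under other settings 160 kept their sign and 26 changed it, all small and uncalled, and the cause was not tested. For breeds, these were 0.045 for 29c between Charolais and Angus in the 36 steers and -0.019 for 29a between KC and Angus with upper quartile factors. For low against high RFI in KC, 29a was -0.078 with upper quartile factors, -0.0025 without a filter, -0.025 summed over precursors, -0.068 after thinning to equal depth, -0.023 in DESeq2, -0.081 with sire as a block and -0.028 in 1 fit of 36 steers. Scaled by library totals, 29b and 29c in KC were 0.019 and 0.023, and 29c in Charolais was 0.0080. With sire as a block, which left few steers to compare within a sire, 29c was -0.015 in Angus and 0.064 in Charolais and 29a was -0.11 in Charolais. In the same fits 29b kept its sign, at -0.48 in Charolais, -0.32 in KC and -0.20 over the 3 breeds, uncalled. Thinning gave -0.051 for 29b and -0.12 for 29c in Angus and -0.028 for 29a in Charolais, and 1 fit of 36 steers gave -0.0035 there. Over the 3 breeds, 29a, 29b and 29c were 0.053, 0.047 and 0.025 by library totals, and 29a and 29b were 0.0097 and 0.0058 without a filter and 0.0067 and 0.0054 in DESeq2. With 1 steer left out, 75 of 756 values changed sign. The ranges were -0.063 to 0.019 for 29b and -0.046 to 0.0066 for 29c between Charolais and Angus. For RFI they were -0.0034 to 0.050 (29a) and -0.039 to 0.081 (29c) in Angus, -0.014 to 0.087 (29a), -0.25 to 0.011 (29b) and -0.13 to 0.031 (29c) in Charolais, -0.089 to 0.041 (29a), -0.073 to 0.037 (29b) and -0.097 to 0.038 (29c) in KC, and -0.023 to 0.019 (29a) and -0.033 to 0.027 (29b) over the 3 breeds. Summed over precursors, 29b was at 40.7 CPM and 5.20% of the family and 29a at 700.02 CPM and 88.9%, since 29b is then counted on 2 precursors. By library totals, r of 29a and 29c was 0.74 in Angus and 0.62 in KC, rho of that pair in Charolais was 0.72, r of 29b and 29c was 0.57 in Angus and 0.062 in Charolais, and rho of 29a and 29b in Charolais was 0.098. The calls of miR-155 and of the other list miRNAs with steers left out, given above, were an addition made after seeing the data. Replicate numbers were given in accession order and pair no steers, so the fits with sire as a block are the comparisons made within families.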

Other observations

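The miRNAs that lie beside the members by name were also compared between breeds. The level of 29d-3p, which differs from 29c at 1 base, ran from 3.44 to 7.92 CPM in Angus, from 1.98 to 9.95 CPM in Charolais and from 3.59 to 11.2 CPM in KC. Its log2 fold change was 0.36 ± 0.14 (SE) in KC against Angus (adjusted p = 0.0797 by edgeR) and 0.30 ± 0.14 in KC against Charolais (adjusted p = 0.132), neither of which passed the adjusted threshold. The values for 29c in these contrasts were -0.049 ± 0.067 and -0.020 ± 0.067. The difference between both miRNAs was not tested. For 29d-5p the log2 fold change was 0.26 ± 0.14 in Charolais against Angus (adjusted p = 0.325) and 0.45 ± 0.25 in low against high RFI in Charolais (adjusted p = 0.907 by edgeR), and neither was called. Its levels rested on 6 to 29 counts per steer.

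In the 27 sets of 6 or 8 steers, taken as the member by breed and RFI group, no steer stood apart from its group by Dixon's test, where chance alone would single out about 1 group in 20. The 8 steers without an RFI group held the lowest 29a of each breed, at 665 CPM in Angus, 596 CPM in Charolais and 661 CPM in KC. They also held the highest 29a in Angus, at 882 CPM, and in Charolais, at 957 CPM, while in KC the highest, 996 CPM, was in a high-RFI steer.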
